A study of Mus musculus with 5 samples.

Results

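Contacts crossing the boundary within the 5′ end of Lmbr1 were measured by 5C in limb, body and head cells of E11.5 mouse embryos. They comprised the primer pairs of the Shh region with one fragment midpoint on chromosome 5 between 29549087 and 29689086, in the Lmbr1 body and on the ZRS side, and the other between 29689087 and 30005000 (mm9, the same sequence as NCBIM37). These limits were given as coordinates. They follow the domain boundary that the study placed within the 5′ end of Lmbr1 from 5C heat maps of these same samples. Fewer contacts across it were therefore to be expected, and they are no independent test of that boundary. The rule found 1237 of the 33306 primer pairs of each library, formed by 33 fragments on the left side and 75 on the right. On the left side 16 fragments carried a forward and 17 a reverse primer, and on the right side 37 and 38. A contact is read only between a forward and a reverse fragment, so the pairs share fragments and are not independent of each other.

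The limb cells came from whole fore- and hindlimb buds, in which the cells of the zone of polarising activity were not separated from the rest. The body sample held multiple tissues, and the head sample neural and craniofacial tissue. All were of the CD1 strain, each sample pooled the tissue of several embryos (far more for limb than for body or head), and no mutation or treatment was described for any group. The 2 limb libraries were biological replicates, the body was 1 library, and the 2 head libraries were technical replicates and were summed to 1 sample. The comparison asked whether the edge of the Shh domain lay at the same place in a tissue with an active ZRS and in tissues where nearly all cells lack Shh expression.

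Shh encodes a secreted signal that patterns the limb from its posterior margin. Its limb enhancer, the ZRS, lies in an intron of Lmbr1, a gene for a membrane protein, far from the Shh promoter. Such enhancers and promoters commonly share a topologically associating domain (TAD), a stretch of chromatin whose fragments contact each other more than they contact fragments outside. On the other side of the boundary lie the 5′ end of Lmbr1, the long non-coding RNA gene 4632411P08Rik, Nom1 (a nucleolar protein), Mnx1 (a homeobox factor of motor neurons) and Ube3c (a ubiquitin ligase). TAD edges are often bound by CTCF, a zinc finger protein that halts loop extrusion in an orientation-dependent manner.

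5C reads the junction of 2 HindIII ends, so the boundary can be placed only as finely as the fragments allow. The boundary coordinate fell inside a reverse fragment of 14007 bases, chr5:29677935-29691941, which holds exon and intron sequence of Lmbr1 and was counted on the left side by its midpoint. Of the 354 fragments of the Shh region, 354 started and 353 ended at a HindIII site of the reference. The ends of the boundary fragment (plus strand, HindIII site in capitals) are shown first, because this is the last fragment counted on the ZRS side.
Boundary fragment start, chr5:29677905-29677964: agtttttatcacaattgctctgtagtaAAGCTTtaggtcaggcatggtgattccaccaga
Boundary fragment end, chr5:29691912-29691971: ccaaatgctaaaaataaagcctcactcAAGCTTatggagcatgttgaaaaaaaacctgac
Stretches without primers flanked it, of 19.7 kb on its left (29658284 to 29677934) and 9.62 kb on its right (29691942 to 29701561). The annotated 5′ end of Lmbr1 (29704930, minus strand) was 15.8 kb to the right of the boundary, in the reverse fragment 29703904 to 29705290. This fragment also holds the start of 4632411P08Rik (29705239, plus strand).

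The next right-hand fragment that the results turn on was the reverse fragment chr5:29713093-29716181 (3089 bases, in 4632411P08Rik, with exon sequence), which starts 8.16 kb beyond the 5′ end of Lmbr1. Its most frequent limb partner across the boundary was the forward fragment chr5:29640676-29641133, in the 28-kb window taken to hold the ZRS (29633087 to 29661086). The gene annotation used here has no entry for the ZRS, so that window was placed from the study's map. Their ends are shown because this was the most frequent crossing pair of limb at 28 kb or more (plus strand, HindIII site in capitals).
4632411P08Rik fragment start, chr5:29713063-29713122: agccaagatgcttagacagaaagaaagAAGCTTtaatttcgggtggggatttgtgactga
4632411P08Rik fragment end, chr5:29716152-29716211: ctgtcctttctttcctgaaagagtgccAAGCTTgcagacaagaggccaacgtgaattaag
ZRS-window fragment start, chr5:29640646-29640705: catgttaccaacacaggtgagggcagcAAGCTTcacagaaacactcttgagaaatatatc
ZRS-window fragment end, chr5:29641104-29641163: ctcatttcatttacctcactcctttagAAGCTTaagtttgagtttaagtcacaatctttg

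The region was searched on both strands for the 14-letter core consensus of the CTCF motif. It matched at 6 places in the 1688 kb of the Shh region, 2 on the plus and 4 on the minus strand, and 0.0619% of 9700 tiles of 174 bases held a match. One match lay in the range of the crossing pairs, on the minus strand at 29662576 to 29662589, inside the primer-free stretch of Lmbr1 26.5 kb to the left of the boundary. It is shown with its flanks because no fragment with a primer covers it (plus strand, match in capitals).
CTCF core match, chr5:29662496-29662669: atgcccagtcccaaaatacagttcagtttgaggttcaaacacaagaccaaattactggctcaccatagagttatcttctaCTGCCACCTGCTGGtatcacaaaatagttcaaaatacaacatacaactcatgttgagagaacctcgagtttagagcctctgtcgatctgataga
The match is a description of letters, and binding was not measured.

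The libraries held 675954 to 1714491 reads. Crossing pairs took 1.75% (95% Wilson interval 1.72 to 1.78) of the reads of limb replicate 1, 1.91% (1.89 to 1.93) of limb replicate 2, 0.988% (0.970 to 1.01) of body and 1.88% (1.87 to 1.90) of head. These intervals cover counting error only, since PCR reads without molecular identifiers are not independent molecules. Body lay below the other samples, while head and both limb replicates lay close together. Between 25.4% (body) and 62.2% (head library 2) of the crossing pairs had no read in a library. In all, 349 pairs were read in all 4 samples and 60 in none. Over the 995 pairs read in either limb replicate, the variance between the replicates was 13.0 times that of counting noise. Over all 1237 pairs, unread ones included, their Spearman correlation was 0.355 (Pearson 0.666, across pairs that share fragments and libraries). The technical head libraries agreed less, at 23.9 times counting noise and a Spearman correlation of 0.174 (Pearson 0.372). Limb replicates 1 and 2 correlated with body at 0.342 and 0.431 by Spearman (Pearson 0.588 and 0.575). By rank, each limb replicate was thus about as close to body as to the other limb replicate. A single pair therefore carries little, and most values below are means over many pairs. Interaction frequency is given throughout as reads per 1000 total reads, with unread pairs as 0. Pairs joining the same fragments to the Usp22 region on chromosome 11 gave the background. Their mean (595 pairs) was 0.000500 and 0.000403 in limb, 0.000272 in body and 0.00199 in head, where library 2 (0.00357) was above library 1 (0.000588). The crossing mean was 28.3 and 38.3 times that background in limb and 29.4 times in body. In head it was 7.64 times, which rested on library 2 (3.98 times), for library 1 alone gave 27.4 times. These multiples depended on the background chosen. All 1948 pairs between the 2 chromosomes had higher means: 0.00784 and 0.00372 (limb replicates 1 and 2), 0.000370 (body) and 0.00737 (head). The crossing means, listed likewise, were 0.0141, 0.0154, 0.00799 and 0.0152. Against this wider set, body stood further above background than either limb replicate or head. Why the wider set was higher was not tested.

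Crossing contacts were less frequent than contacts at the same separation inside either neighbouring domain, in limb, body and head alike. Each crossing pair at a separation of 28 to 280 kb was divided by the mean of the pairs inside the Shh domain (28765087 to 29689086) in the same 28-kb bin of separation. The mean of these ratios came to 0.580 and 0.632 for the limb replicates (0.606 ± 0.0371, SD, n = 2), to 0.415 for body and to 0.610 for head. Set against pairs inside the domain beyond Lmbr1, it was 0.335 and 0.344 in limb (0.340 ± 0.00636), 0.302 in body and 0.454 in head. Body had the lowest ratio in both comparisons on this scale, and head and limb overlapped in the first. The head libraries gave 0.600 and 0.627 against the Shh domain, which is technical spread alone, and body had no replicate. At 280 kb and more, where 464 pairs lay, the ratio to the Shh domain was 0.478 and 0.468 in limb, 0.428 in head and 0.354 in body. The place of body depended on the measure. With balanced primer totals, in which each fragment is divided by its own total, the ratio to the domain beyond Lmbr1 was 0.358 and 0.325 in limb, below the 0.387 of body. The share of pairs with at least 1 read at equal depth gave 0.771 in limb, 0.809 in body and 0.767 in head against the Shh domain. The ratios were not tested between tissues, since an exact permutation test of 2 samples against 2 cannot give a p below 0.333.

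The deficit depended on separation. At 112 to 280 kb crossing pairs were below the Shh domain in every bin and sample. In the bin of 112 to 140 kb (90 pairs) the mean crossing frequency was 0.0191 and 0.0200 in limb, 0.0113 in body and 0.0188 in head, or 0.680, 0.666, 0.458 and 0.637 of the Shh domain. In the bin of 252 to 280 kb (138 pairs) these shares were 0.508, 0.598, 0.294 and 0.505. At shorter separations the pattern was less even. At 28 to 56 kb, where 6 pairs lay, crossing contacts were at 0.680 and 0.814 of the Shh domain in limb, 0.531 in head and 0.722 in body, so all samples were below 1 and head was lowest. At 56 to 84 kb (40 pairs) crossing contacts were more frequent than those of the Shh domain in limb replicate 1 (0.0519 against 0.0392), limb replicate 2 (0.0529 against 0.0423) and head (0.0538 against 0.0408), and less frequent in body (0.0274 against 0.0348). The ratios were 1.32, 1.25, 1.32 and 0.787. Of these 40 pairs, 5 involved the 4632411P08Rik fragment printed above, and without them the ratios were 0.804, 0.892, 0.993 and 0.683. With that fragment left out, no sample's mean exceeded the Shh domain at 56 to 84 kb. In the bin of 84 to 112 kb (38 pairs), with all fragments kept, the ratios were 0.985 and 1.07 in limb, 0.586 in body and 0.819 in head.

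**Figure D1:**
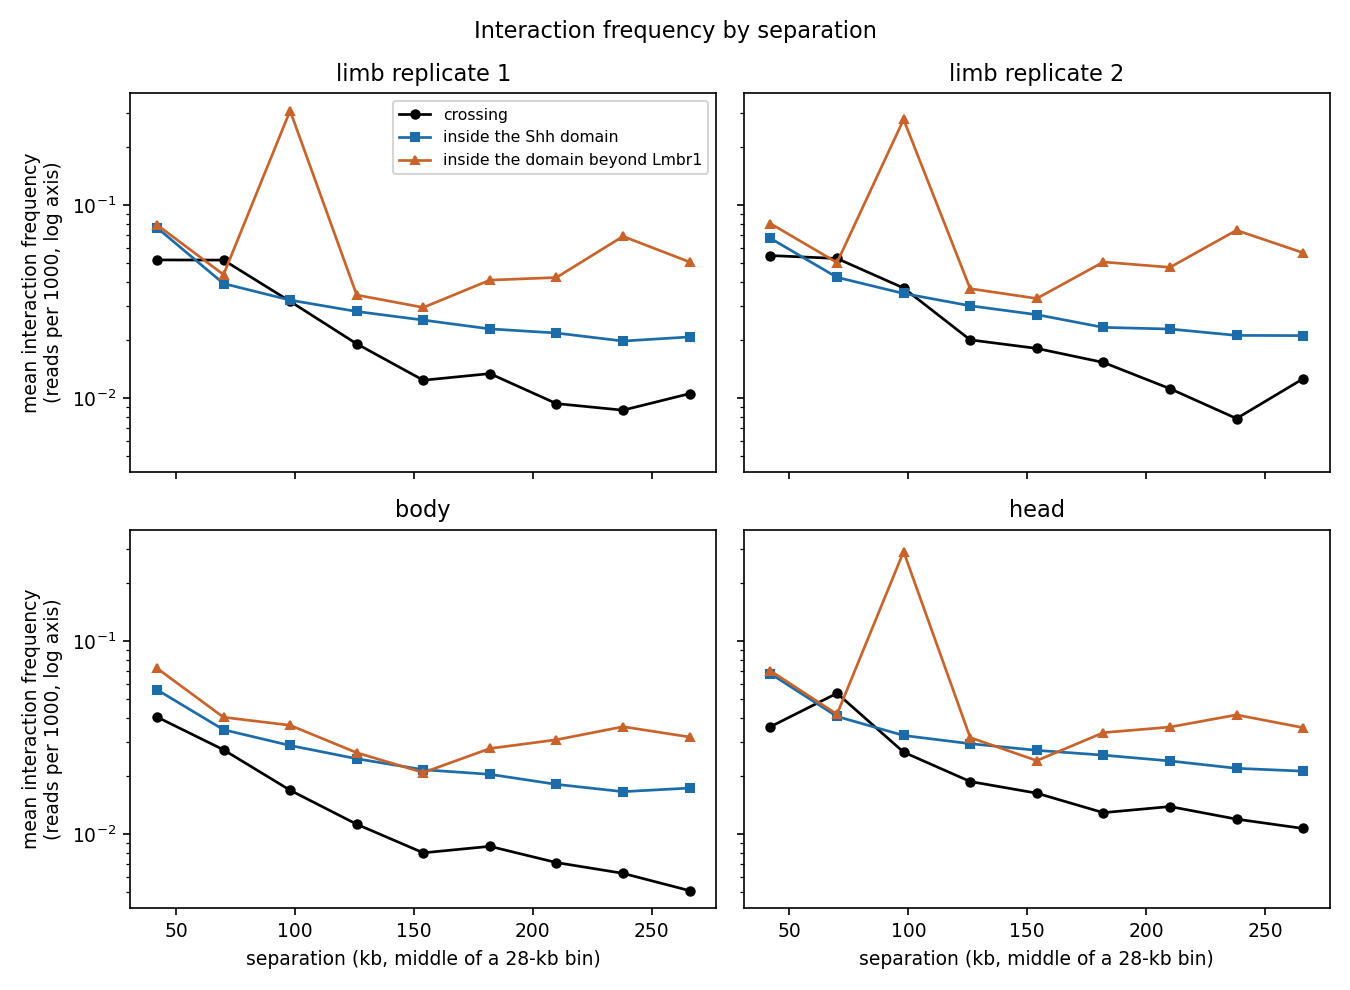
Mean interaction frequency (reads per 1000, log axis) against separation in 28-kb bins (kb) for crossing pairs (circles), pairs inside the Shh domain (squares) and pairs inside the domain beyond Lmbr1 (triangles), 1 panel per sample. The crossing curve runs below both others from 112 kb on, and touches or exceeds the Shh domain at 56 to 84 kb in all samples but body; the peak of the domain beyond Lmbr1 at 84 to 112 kb in limb and head is 1 primer pair.

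The domain beyond Lmbr1 owed its high value at 84 to 112 kb to 1 isolated pair that begins just past the boundary. It joined the fragment with the 5′ end of Lmbr1 (29703904 to 29705290) to the forward fragment 29806189 to 29807449 near the 5′ end of Mnx1, 102 kb apart. It held 29645 and 66035 reads in limb, 27075 and 58417 in the head libraries and 668 in body, that is a frequency per 1000 of 43.9 and 38.5 in limb, 43.2 in head and 0.633 in body. Both fragments lie to the right of the boundary, so the pair is not a crossing pair, but it enters the comparison with that domain. With isolated pairs removed the ratio to the domain beyond Lmbr1 was 0.361 and 0.373 in limb, 0.305 in body and 0.484 in head.

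Crossing contacts were most frequent in the first stretch beyond the boundary and dropped before Nom1. Relative to Shh-domain pairs at the same separation, all left fragments together contacted the stretch with the 5′ end of Lmbr1 and 4632411P08Rik (29689087 to 29741203, 146 pairs) at 0.993 and 0.995 in limb, 0.606 in body and 0.871 in head. For the stretch from 20 kb upstream of Nom1 to its end (29741204 to 29780046, 165 pairs) the ratio was 0.413 and 0.540 in limb, 0.355 in body and 0.551 in head. For Mnx1 with its flanks (29780047 to 29810058, 132 pairs) it was 0.472, 0.481, 0.264 and 0.471. The step between the first stretch and Nom1 exceeded the spread between limb replicates, and the stretches further out lay near the Nom1 level. Between Mnx1 and Ube3c (329 pairs) the ratio was 0.473, 0.489, 0.398 and 0.559, and over Ube3c (462 pairs) it was 0.514, 0.531, 0.370 and 0.442. The first stretch again rested in part on the 4632411P08Rik fragment. Without it the ratio there was 0.636 and 0.701 in limb, 0.558 in body and 0.688 in head, still above the Nom1 stretch of the same sample.

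The left side was graded too. The part of Lmbr1 from 29549087 to 29633086 crossed at 0.438 and 0.468 in limb, 0.467 in head and 0.327 in body over all right fragments (862 pairs). The window taken to hold the ZRS crossed at 0.748 and 0.780 in limb, 0.472 in body and 0.690 in head (338 pairs). The boundary fragment crossed at 1.13 and 1.10 in limb, 1.24 in body and 0.968 in head (34 pairs), close to the level of pairs inside the Shh domain. This fragment was the longest of the left side (14007 bases against a median of 1766), and the ratio makes no allowance for length. Whether length contributed to its level was not tested. The order from the far part of Lmbr1 to the boundary fragment was the same in all 4 samples. For the ZRS window with the first stretch alone (40 pairs) the ratio was 1.38 and 1.27 in limb (1.32 ± 0.0735, SD, n = 2), 0.793 in body and 1.31 in head, and without the 4632411P08Rik fragment it was 0.863, 0.914, 0.690 and 0.988. Against Mnx1 and its flanks (36 pairs) the ZRS window was at 0.729 and 0.709 in limb, 0.608 in head and 0.312 in body, and against Ube3c (126 pairs) at 0.849, 0.782, 0.624 and 0.432 in that order. Toward the other stretches the limb replicates were not both above head and body. Against Nom1 with its upstream stretch the window was at 0.412 and 0.658 in limb, 0.563 in head and 0.337 in body, and between Mnx1 and Ube3c (91 pairs) at 0.505, 0.649, 0.603 and 0.516 in that order.

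**Figure D2:**
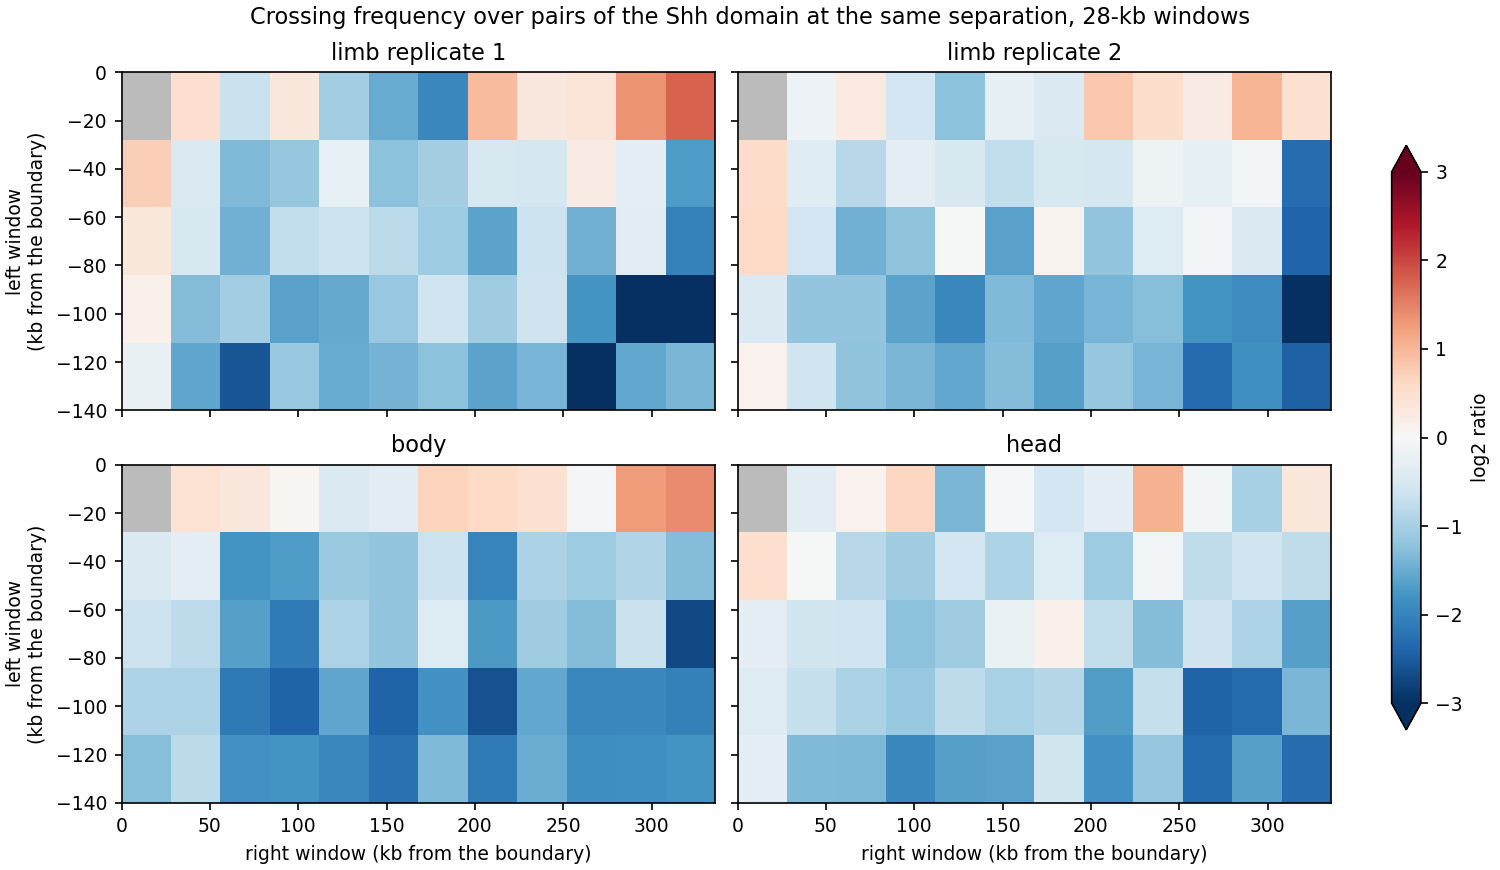
Crossing contacts in 28-kb windows as the log2 ratio to pairs of the Shh domain at the same separation, left windows (kb from the boundary) on the vertical and right windows on the horizontal axis, 1 panel per sample; red is above and blue below the Shh domain, and grey marks windows with no pair at 28 kb or more. The top row, which is the boundary fragment alone, and the first column hold most windows above 0, and body is bluer than the other samples in the remaining rows.

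The position at which contacts stopped was located by a score at each of 64 edges between neighbouring fragments within 140 kb of the boundary. The score was the mean observed over expected of the pairs crossing that edge from within 140 kb on either side, where expected is the mean of all pairs of the region at the same separation. It was lowest at 29703904 in both limb replicates (0.589 and 0.611), the edge just left of the fragment with the 5′ end of Lmbr1 and 14.8 kb to the right of the boundary. In head it was lowest at the neighbouring edge 29701562 (0.620), 12.5 kb to the right. In body it was lowest at 29656939 (0.456), 32.1 kb to the left, but the score at the left end of the boundary fragment was 0.460, so the body minimum was flat across the stretch without primers. In limb and head the scores at that end were 0.598, 0.657 and 0.644. All 4 samples thus had a trough that spanned the boundary fragment. The lowest edge itself moved with the settings, since balanced primer totals placed it at 29677935 in both limb replicates and in head and at 29652798 in body, and squares of 84 kb placed it between 29622314 and 29815594.

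**Figure D3:**
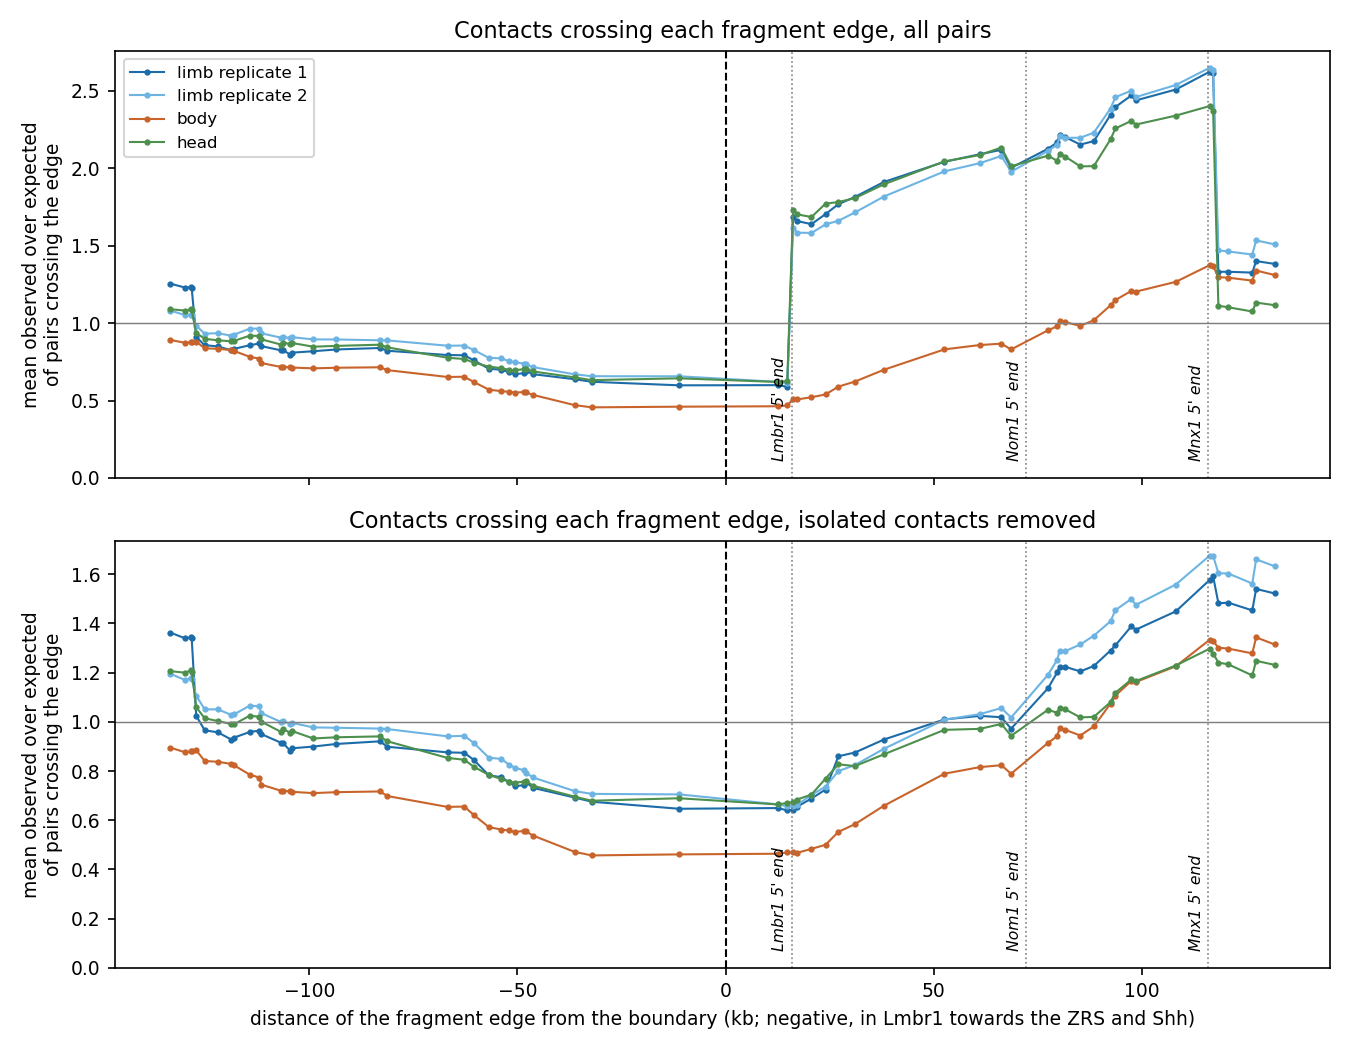
Mean observed over expected of the pairs crossing each fragment edge (vertical axis, no unit) against the distance of the edge from the boundary (kb), all pairs above and isolated contacts removed below, 1 line per sample, with the 5′ ends of Lmbr1, Nom1 and Mnx1 dotted. All samples have a trough around the boundary with body lowest, and the step to above 1.5 at the Lmbr1 5′ end in limb and head disappears when the isolated contacts are removed.

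One fragment stood out among those on the right side. The 4632411P08Rik fragment 29713093 to 29716181 had a mean crossing frequency over its 16 left partners of 0.129 and 0.118 in limb, 0.0295 in body and 0.0820 in head. Its pairs were 1.29% of the crossing pairs and took 11.8% and 9.92% of the crossing reads in limb, 6.96% in head and 4.78% in body. The reverse fragments on either side of it, 29706211 to 29709705 and 29720155 to 29727114, had 0.0377 and 0.0313 in limb replicate 1, 0.0495 and 0.0366 in limb replicate 2, 0.0300 and 0.0335 in body, and 0.0416 and 0.0403 in head. The fragment was thus 3.73 and 2.75 times the mean of its neighbours in limb, 2.00 times in head and 0.930 times in body. It was above both neighbours for 15 and 13 of its 16 partners in limb, 9 in head and 3 in body. Body did not share the excess.

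The excess was not limited to the partners across the boundary. Toward the rest of the Shh domain (79 partners) the same fragment was 3.86 and 3.72 times its neighbours in limb, 2.43 in head and 0.854 in body. Toward the domain 3′ of Shh (44 partners) it was 3.54, 3.37, 2.63 and 1.10 times in the same order, and within its own domain (32 partners at 28 kb or more) 3.94, 3.05, 2.57 and 1.19 times. The factor was thus of like size toward these 4 groups of partners, all within the Shh region. Toward 6 fragments of the Usp22 region the fragment had no read in limb or head, where its neighbours had means of 0 to 0.00530. In body it had 0.000158 there, 0.333 times its neighbours. With 6 partners near the floor, no factor can be read from that group. Whether the capture of that fragment end differed between libraries was not tested. With balanced primer totals the ratio of crossing pairs to the Shh domain was 0.554 and 0.501 in limb, 0.488 in body and 0.609 in head, so body moved closer to both limb and head and stayed lowest.

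**Figure D4:**
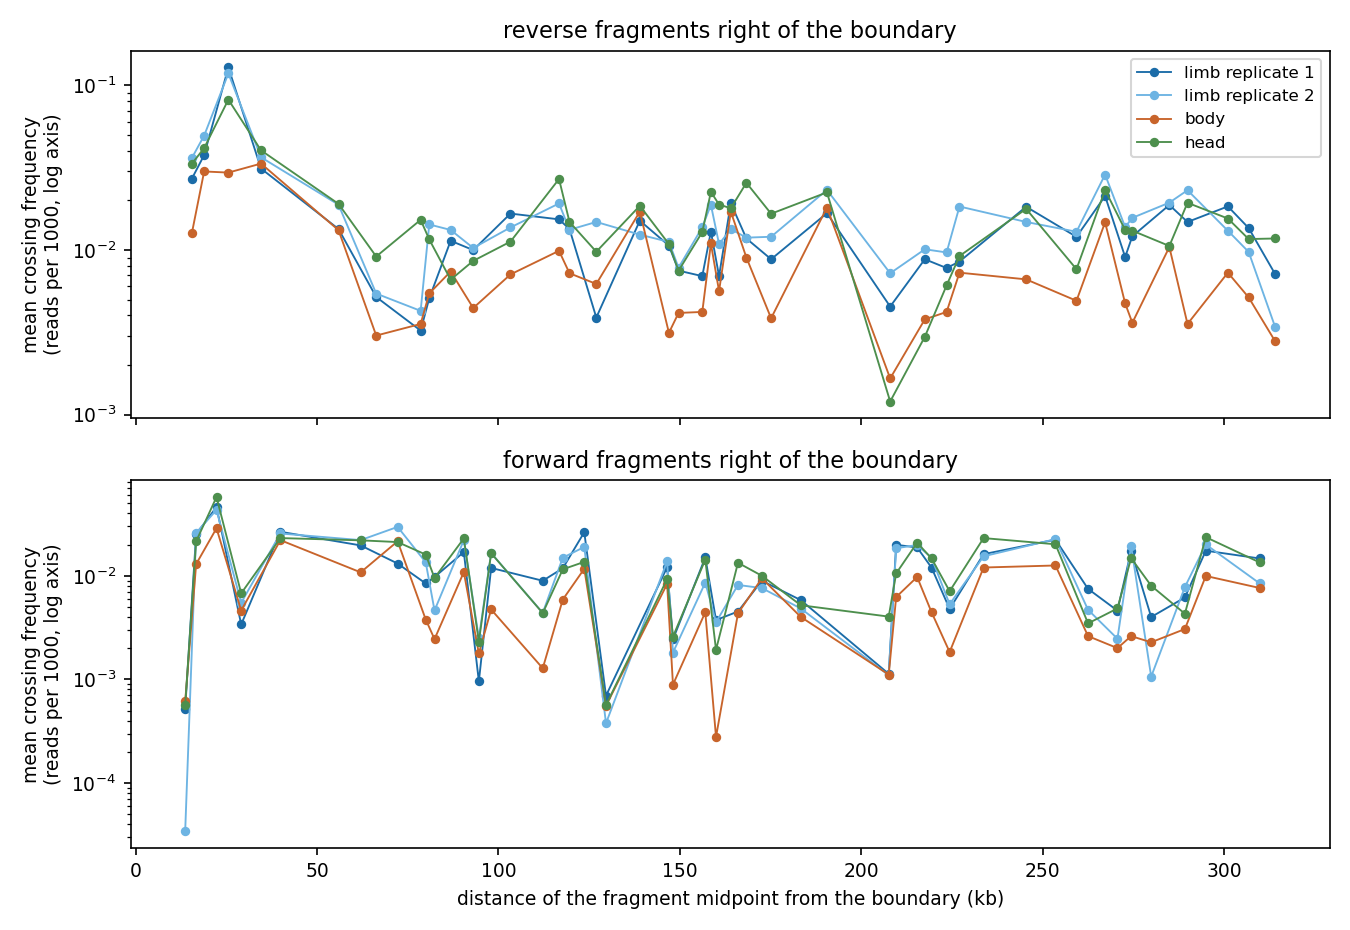
Mean crossing frequency (reads per 1000, log axis) of each fragment right of the boundary over its left partners, by distance of its midpoint from the boundary (kb), reverse fragments above and forward fragments below, 1 line per sample. The 4632411P08Rik fragment is the highest reverse fragment in limb and head at 0.0820 to 0.129, while body stays at 0.0295 there, level with its neighbours.

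Most left fragments crossed less than they contacted their own side. For each fragment the crossing frequency was divided by that toward its own side over the separation bins present in both. The median over the 33 left fragments was 0.540 and 0.624 in limb, 0.644 in head and 0.515 in body, and 27 of the 33 were below 1 in all 4 samples. On the right side, where 37 of 75 fragments had a ratio in every sample, the medians over all with a value (38 in limb and body, 39 in head) were 0.508 in both limb replicates, 0.664 in head and 0.456 in body, and 19 of the 37 were below 1 in all samples. The lowest left fragments were reverse fragments inside Lmbr1, far from the boundary. The fragment 29563973 to 29566252, 124 kb to the left in an intron, had 0.263 and 0.423 in limb, 0.240 in head and 0.249 in body. The fragment 29606038 to 29607875, also intronic, had 0.505 and 0.413 in limb, 0.280 in head and 0.204 in body, and 29584537 to 29585000, with exon sequence, had 0.295, 0.168, 0.522 and 0.231 in that order.

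The highest left fragments included the 2 that lie next to the boundary. The intronic forward fragment 29656939 to 29658283, the last before the 19.7-kb stretch without primers, had 1.13 and 0.811 in limb, 1.44 in head and 1.22 in body. The boundary fragment had, in that order, 1.22, 0.929, 1.03 and 0.947. Both therefore contacted the 2 sides about equally, and their values lay on either side of 1. The third, 29560852 to 29561928 near the 3′ end of Lmbr1 and 128 kb from the boundary, had 0.508, 0.924, 1.46 and 0.858, with head alone above 1.

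On the right side the lowest was the fragment with the 5′ end of Lmbr1, at 0.00746 and 0.0152 in limb, 0.265 in body and 0.0107 in head. Its own side contains the isolated pair described above, which sets these values in limb and head, and its mean crossing frequency (0.0272 and 0.0363 in limb, 0.0127 in body, 0.0335 in head) was above the right-side median of each sample. The next lowest were in Nom1. The fragment 29774284 to 29777533 had 0.275 and 0.365 in limb, 0.225 in head and 0.239 in body, and 29766525 to 29768740 had 0.105 and 0.196 in limb, 0.563 in head and 0.172 in body. The highest lay between Mnx1 and Ube3c and rested on few reads or bins. The forward fragment 29816517 to 29820938 had 8 and 11 crossing reads in limb, 19 in head and 10 in body, and ratios from 0.0960 to 5.82, so no level can be read from it. The fragments 29820939 to 29835163 and 29845799 to 29846398 rested on 1 separation bin each, with ratios of 0.302 to 5.04 and 0.992 to 2.22. The 5′ ends of Nom1 and Mnx1 lay in the forward fragments 29757662 to 29764922 and 29797223 to 29805362, and no fragment with a primer covered that of Ube3c. Fragment length went with the crossing level to some extent (Spearman 0.374 over 33 left and 0.397 over 75 right fragments, which share libraries). The Pearson correlation with length was 0.682 on the left, where the boundary fragment is the longest, and 0.241 on the right. GC content went with the level less (Spearman -0.136 and 0.189). The 4632411P08Rik fragment was near the median length of 2397 bases for its side.

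Single pairs were ranked by their frequency averaged over limb, body and head, so a pair high in limb alone can rank among the first. Of the 10 highest crossing pairs at 28 kb or more, 6 held the 4632411P08Rik fragment, and 4 of those 6 came from the ZRS window. Its pair with the ZRS-window fragment 29640676 to 29641133 had 185 and 461 reads in limb, 211 and 99 in the head libraries and 43 in body. Its frequency was 0.274 and 0.269 in limb, 0.201 and 0.106 in the head libraries and 0.0407 in body, so both limb values were above all others. Its pair with 29656939 to 29658283 was the highest on average but differed between limb replicates (0.243 and 0.0927), with 0.0729 in body and 0.282 and 0.188 in head. Here limb replicate 2 was nearer to body than to limb replicate 1.

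Both limb replicates were also above all other libraries for 3 further pairs of that fragment. These are not separate cases, since they share a fragment that exceeded its neighbours in limb toward every group of partners within the Shh region. With 29642804 to 29649071, also in the ZRS window, the frequency was 0.215 and 0.195 in limb, 0.0682 in body, and 0.0954 and 0.149 in head. With 29607876 to 29613408 it was 0.203 and 0.215 in limb, 0.0455 in body, and 0.0915 and 0.0730 in head. With 29626315 to 29628597 it was 0.207 and 0.254 in limb, 0.0161 in body, and 0.0544 and 0 in head, the last from a library with no read for it. The remaining one, with 29632212 to 29635239, did not separate the tissues, at 0.154 and 0.128 in limb, 0.0568 in body, and 0.198 and 0.0784 in head.

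The other 4 pairs did not use that fragment. The boundary fragment with 29727115 to 29730837, which lies between genes 44.0 kb away, had 0.207 and 0.113 in limb, 0.143 in body, and 0.0791 and 0.110 in head, and its groups overlapped. The fragment 29642804 to 29649071 contacted 29706211 to 29709705 in 4632411P08Rik at 0.0784 and 0.0916 in limb, 0.0881 in body, and 0.0820 and 0.0730 in head, the most even of the 10 pairs. The last 2 pairs, 29632212 to 29635239 with 29706211 to 29709705 and 29642804 to 29649071 with 29720155 to 29727114, had their highest value in head library 1 (0.222 and 0.118) and their lowest in limb replicate 1 (0.0251 and 0.0222). Just 3 crossing pairs were closer than 28 kb, all of the boundary fragment. The most frequent, with 29709706 to 29713030 at 26.4 kb, had 0.340 and 0.257 in limb, 0.225 and 0.775 in the head libraries and 0.202 in body.

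**Figure D5:**
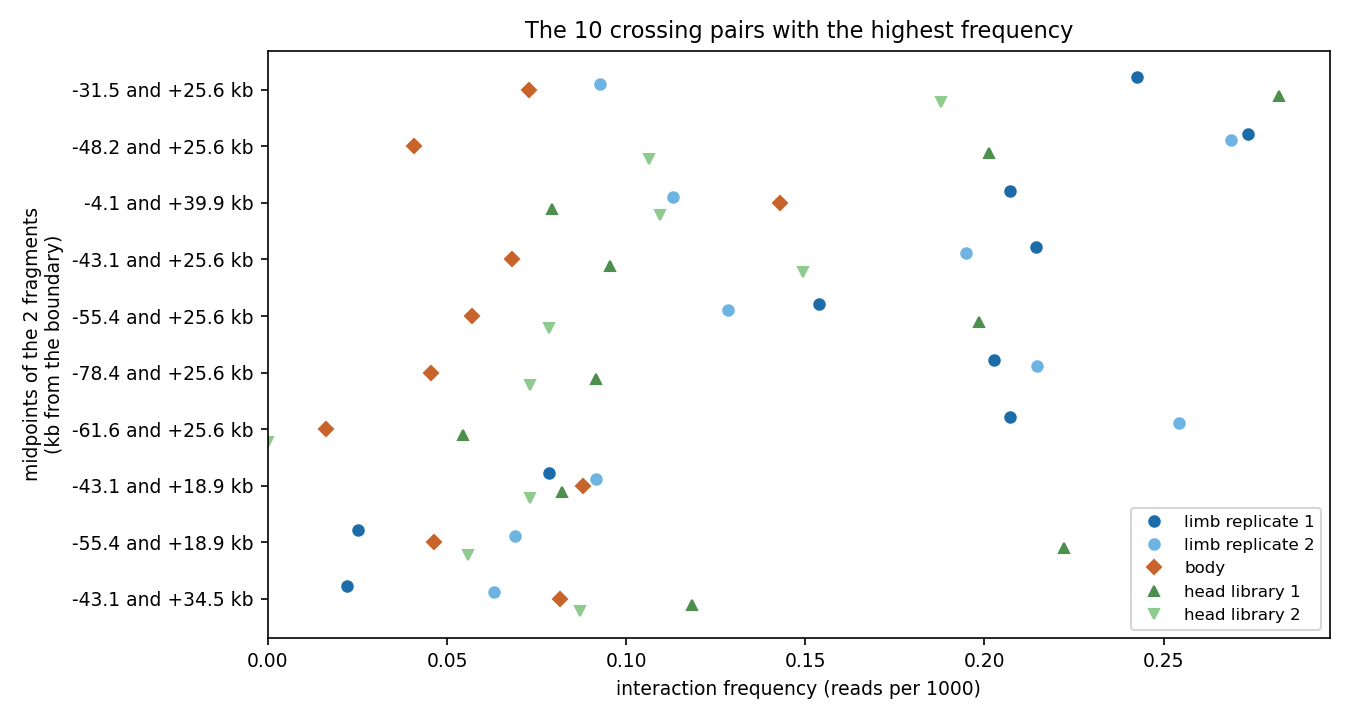
Interaction frequency (reads per 1000) in each of the 5 libraries of the 10 crossing pairs with the highest mean over limb, body and head. Each pair is given by the midpoints of its fragments in kb from the boundary. The pairs at +25.6 kb are those of the 4632411P08Rik fragment, in which limb (circles) lies mostly to the right and body (diamonds) to the left.

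No crossing pair passed the test between limb and the other tissues. In edgeR's quasi-likelihood test of the limb replicates against body and head, fitted over all pairs, 724 of the 1237 crossing pairs passed the filter on low counts and 0 had an adjusted p below 0.05, beside 0% of all 17531 pairs tested. At an unadjusted p below 0.05 there were 34 (4.70%), beside 3.55% of all pairs, and DESeq2 also called 0, with 43 at that unadjusted level beside 3.89%. Among the 10 named pairs, 29626315 with 29713093 had the smallest p, with a log2 fold change of 3.15 (SE 0.55) toward limb and an edgeR adjusted p of 1.00. The median log2 fold change was 0.17 over the crossing pairs tested and -0.09 over all pairs. The coefficient of variation between samples of a group was 1.06 for single pairs, so that a test at this level can show little. Because the non-limb group joined body and head, this coefficient also holds the difference between those tissues. Summed to 28-kb windows the coefficient was 0.387, and there edgeR called 0 of 60 crossing window pairs and 0% of all 1874. At an unadjusted edgeR p below 0.05 there were 3 crossing window pairs (5.00%), beside 2.19% of all window pairs.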

How the data were processed

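The authors ran 5C on HindIII fragments, sequenced the products on an Ion PGM and processed them through a Torrent 5C pipeline on Galaxy. They deposited raw read counts, 1 for each combination of a forward with a reverse fragment, on mm9. The counter's version was not given in the sources used here.

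Counts were divided by their sum in the sample and multiplied by 1000, and the 2 head libraries were summed first. Total reads were 675954 and 1714491 in limb, 1056071 in body, and 1048682 and 931061 in head. The smallest frequency that 3 reads can show was 0.00444, 0.00175, 0.00284 and 0.00152 in the 4 samples.

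Ratios used 28-kb separation bins from 28 to 280 kb. Isolated contacts had at least 100 reads, 20 times the most-read pair among neighbouring fragments, in at least 2 libraries at 84 kb or more. There were 8, of which 0 crossed, and their reads stayed in the totals when they were removed. Pairs were tested with edgeR 4.0.16 (quasi-likelihood, TMM, filterByExpr, Benjamini-Hochberg at 0.05) in R 4.3.3, with DESeq2 1.42.0 as an alternative, and both the test and the ratio were tested on simulated data. There the test made no correct calls at the spread of single pairs, whereas for window pairs it called most of the larger changes. The named pairs are the 10 most frequent at 28 kb or more, and the named fragments the 3 highest and 3 lowest on each side, those with gene 5′ ends and the ZRS window. The 4632411P08Rik fragment was singled out after its values were seen. Members, lists and tests were chosen with earlier results of these data known. Python 3.11.15, numpy 2.4.6, pandas 2.3.3 and scipy 1.17.1 were used with the NCBIM37 sequence and GENCODE annotation. The other alternatives were bin widths, separations, other boundary positions, capping, balanced primer totals, equal depth and left-out libraries. The FISH experiments were not analysed here.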

Additional observations from a re-analysis of the deposited data

Results flagged for a closer look

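The ratios of every separation bin, every pair of stretches and every partner group of the 4632411P08Rik fragment within the Shh region were searched. Limb was set against body and against head in each. Limb and another tissue lay on opposite sides of 1 in 6 of these comparisons, and most comparisons were not among them. None of these 6 differences was tested. In 4 of them both limb replicates were above 1 and body below it. At 56 to 84 kb, crossing over Shh-domain frequency was 0.787 in body against 1.32 and 1.25 in limb. For the ZRS window with the stretch of the Lmbr1 5′ end it was 0.793 in body against 1.38 and 1.27. The 4632411P08Rik fragment over its neighbours was 0.930 in body against 3.73 and 2.75 across the boundary, and 0.854 against 3.86 and 3.72 toward the rest of the Shh domain. The first 2 of these rested on that fragment, since without it limb fell to 0.848 and 0.888, on the same side of 1 as body. The boundary fragment was at 0.968 in head over all right fragments against 1.13 and 1.10 in limb, and at 1.03 in body toward the stretch between Mnx1 and Ube3c against 0.334 and 0.773 in limb (9 pairs).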

How the results depend on the processing

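The ratio to the Shh domain stayed below 1 in limb, body and head under every alternative but 1. Placing the boundary at the annotated 5′ end of Lmbr1 turned the isolated pair into a crossing pair and gave 2.18 in limb and 2.27 in head (0.448 in body), and against the domain beyond Lmbr1 1.34 and 1.83. With isolated contacts also removed the latter were 0.354 in limb, 0.285 in body and 0.443 in head. Balanced primer totals gave 0.528 in limb and 0.488 in body against the Shh domain, and 0.341 in limb, 0.387 in body and 0.505 in head against the domain beyond Lmbr1, so limb and not body was lowest there. The share of pairs read at equal depth gave 0.771, 0.809 and 0.767 against the Shh domain and 0.730, 0.814 and 0.746 against the other, in the order limb, body and head. Without the 4632411P08Rik fragment (an alternative added, like the 5′ end boundary, after the data were seen) the values were 0.542, 0.402 and 0.573, with 0.473 in head against the domain beyond Lmbr1. That omission also brought the ratio at 56 to 84 kb from 1.29 to 0.848 in limb and from 1.32 to 0.993 in head, and for the ZRS window with the first stretch to 0.888 and 0.988. Leaving out a head library gave 0.600 to 0.627 against the Shh domain and 0.453 to 0.474 against the other, and leaving out a limb replicate 0.580 to 0.632 and 0.335 to 0.344.

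Against the domain beyond Lmbr1, bins of 14 kb gave 0.358 in limb and 0.473 in head, bins of 56 kb 0.299 and 0.404, and removal of isolated contacts 0.367 and 0.484. A boundary 14 kb to the right gave 0.319, 0.285 and 0.426, and capping 0.403, 0.320 and 0.508, in limb, body and head. The lowest edge moved to 29622314 in both limb replicates, 29703904 in body and 29815594 in head with squares of 84 kb. It moved to 29677935 in both limb replicates and head and 29652798 in body with balanced primer totals, and to 29656939 in limb replicate 1 without the 4632411P08Rik fragment. The cause of the other moves was not tested.

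The count of crossing pairs called stayed at 0 under every alternative that left no group with a single sample. Calls were also rare over all pairs, with 3 of 29231 when low counts were not filtered and 0 in the other such settings. The 0 is therefore nothing particular to the crossing pairs. Of 50 values of the named pairs under another denominator or single head libraries, 33 moved by less than their error and 17 did not. The other denominator was the reads within the Shh region, 96.8% to 98.3% of each library, so those values were bound to shift little. With a single head library, both values moved beyond their error for every named pair except 29607876 with 29713093 and 29642804 with 29706211. The pair 29640676 with 29713093 was 0.157 in head, 0.201 in library 1 and 0.106 in library 2. No paired analysis was made, because the labels match no limb sample to a body or head sample. Single pairs were often unread, as 25.4% to 62.2% of them had no read in a library. This share did not follow depth. It was 25.4% in body (1056071 reads), 50.2% in head library 1 (1048682 reads) and 34.1% in limb replicate 2, the deepest (1714491 reads).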
